A study of Homo sapiens with 6 samples.

Results

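The receptors and co-receptors that read Wnt ligands at the cell surface were examined in HCT-116, an established human colorectal carcinoma cell line. The 9 genes were listed by name: the co-receptors LRP5 and LRP6, the frizzled receptors FZD3, FZD5, FZD6 and FZD7, the alternative receptor RYK, and the inhibitors KREMEN1 and DKK1. A row was taken when its gene name held one of them, which gave 8 rows of the 27918 genes and loci in the deposited table, and FZD7 was not analysed here. The comparison asks how the levels of these RNAs differ between cells given a GapmeR (an antisense oligonucleotide that directs RNase H to its target) against the long non-coding RNA CASC9 and cells given a control GapmeR.

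All cells received a GapmeR at 10 nM by lipid transfection. GapNC cells were given the negative control and GapC9 cells the GapmeR against CASC9, with 3 RNA-seq libraries in each group. The methods place the harvest 48 h after transfection, whereas the results text gives 24 h. Nothing in the labels says whether replicates came from separate cultures, so p-values measure only the spread between these libraries. CASC9 itself was listed at 0, 0.0108 and 0 FPKM (fragments scaled to transcript length and library size) in GapNC and at 0.0528, 0.107 and 0 FPKM in GapC9. These values sit at the floor of detection and cannot check the knockdown, and RT-qPCR of CASC9 and LRP6 was not analysed here. The direction of each difference is that of the labels.

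Wnt proteins bind a frizzled, a receptor with a cysteine-rich extracellular domain, together with LRP5 or LRP6, single-pass co-receptors with large extracellular domains. The bound pair recruits Dishevelled and Axin to the membrane, so that β-catenin is no longer degraded and can act with TCF/LEF factors in the nucleus, the pathway that drives crypt renewal in the gut and is activated in most colorectal cancers. DKK1 blocks LRP5 and LRP6 from outside the cell and KREMEN1 helps it clear them from the surface, while RYK is a Wnt-binding relative of receptor tyrosine kinases.

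Low FPKM values rise in even steps, and taking 1 step as 1 fragment puts the libraries at 22.7 to 24.4 M mapped fragments. The depth is not otherwise known. Of 10 epithelial markers, EPCAM (62.3 to 88.4 FPKM), KRT8, KRT18, KRT19, CDH1 and CDX2 were expressed, KRT20 stayed at or below 0.302 FPKM, and VIL1, CDX1 and LGALS4 were at or near 0. The summed epithelial markers ranged from 1010 to 1400 FPKM in GapNC and from 994 to 1260 FPKM in GapC9. Of the stromal markers only COL1A1 and COL3A1 reached 1 FPKM, with sums of 4.2 to 5.71 FPKM in GapNC and 4.41 to 5.31 FPKM in GapC9, and the 4 blood and 3 endothelial markers summed to at most 0.113 FPKM. Library GapNC replicate 1 stood furthest apart by base composition. Its deviation from the mean of the 6 libraries rose with the GC content of the gene (Spearman's rho 0.622). This was taken across 10117 genes, which are not independent replicates. GapC9 replicates 2 and 3 trended the other way (-0.34 and -0.387). GapNC replicates 2 and 3 and GapC9 replicate 1 were at 0.0102, -0.108 and 0.023. The trend was thus not confined to 1 library and differed in part between the groups. Where a result below rests on GapNC replicate 1, the value without it or after a correction for GC content is given beside the result.

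The LRP6 row covers 3 of the 7 LRP6 transcripts of GENCODE 29 (GRCh38), and the gene lies on the minus strand at chr12:12116025-12267012. No annotated exon of the opposite strand overlapped it. The pair of LRP6 RT-qPCR primers listed by the study is shown because it marks, base for base, which LRP6 RNAs an independent assay would read. In the longest listed transcript, a protein-coding RNA of 10020 bases, the forward primer falls in exon 14 of 23 at chr12:12148987-12149008 and the reverse primer in exon 15 at chr12:12147494-12147515, and they bound 130 bases. Both sites were present in 3 LRP6 transcripts, of which 2 are listed in the row, and in 0 other genes. Capitals are not used in these sequences because the whole primer pairs.
LRP6 forward primer: cagttggagtggtgctgaaagg
LRP6 reverse primer: ccatccaaagcagcccgttcaa

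The expression of LRP6 was lower in GapC9 than in GapNC and its fitted change was the largest among the rows with a value above 0 in every library. LRP6 was measured at 3.86, 4.92 and 5.21 FPKM in the GapNC libraries and at 1.86, 1.83 and 1.96 FPKM in the GapC9 libraries. The groups did not overlap, and the 3 GapC9 values lay close together whereas the GapNC values were spread. The means were 4.66 ± 0.71 and 1.88 ± 0.0706 FPKM (SD, n = 3), a level 2.48-fold lower. In limma's fit the log2 fold change was -1.25 ± 0.15 (SE, 95% interval -1.61 to -0.90, adjusted p = 0.0172), on the log2(FPKM + 0.1) scale, which understates the change of low genes. LRP6 fell by both rules used here, and was the only 1 of the 8 rows called by the study's thresholds of a ratio of means of at least 2 or at most 0.5 with an unadjusted p under 0.05. By that rule 4.32% of the 16028 genes and loci tested were called lower and 2.1% higher. In these bulk samples a smaller share of LRP6-expressing cells and less LRP6 RNA per cell cannot be told apart.

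The fold call of LRP6 was made in each of the 19 alternative fits, whose log2 fold changes ran from -1.38 to -0.97. Pseudocounts, filters, variance models and a replicate block leave the ratio of means at 0.404, so only the p of the call could change there. Its adjusted p passed 0.05 in 11 of 18 fits. Without GapNC replicate 1 the change was -1.38 (adjusted p = 0.0199), but leaving out any other library took the adjusted p to between 0.0566 and 0.0828. After correction for GC content (LRP6 has 40.2% GC in its longest listed transcript) the change was -1.31 with an adjusted p of 0.00317. If each step of FPKM is 1 fragment and all come from the longest listed transcript, the values stand for about 879, 1152 and 1273 fragments in GapNC. In GapC9 they stand for 429, 443 and 466. Of the 10229 genes averaging 1 FPKM or more, 239 (2.34%) had a lower log2 fold change than LRP6.

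**Figure D1:**
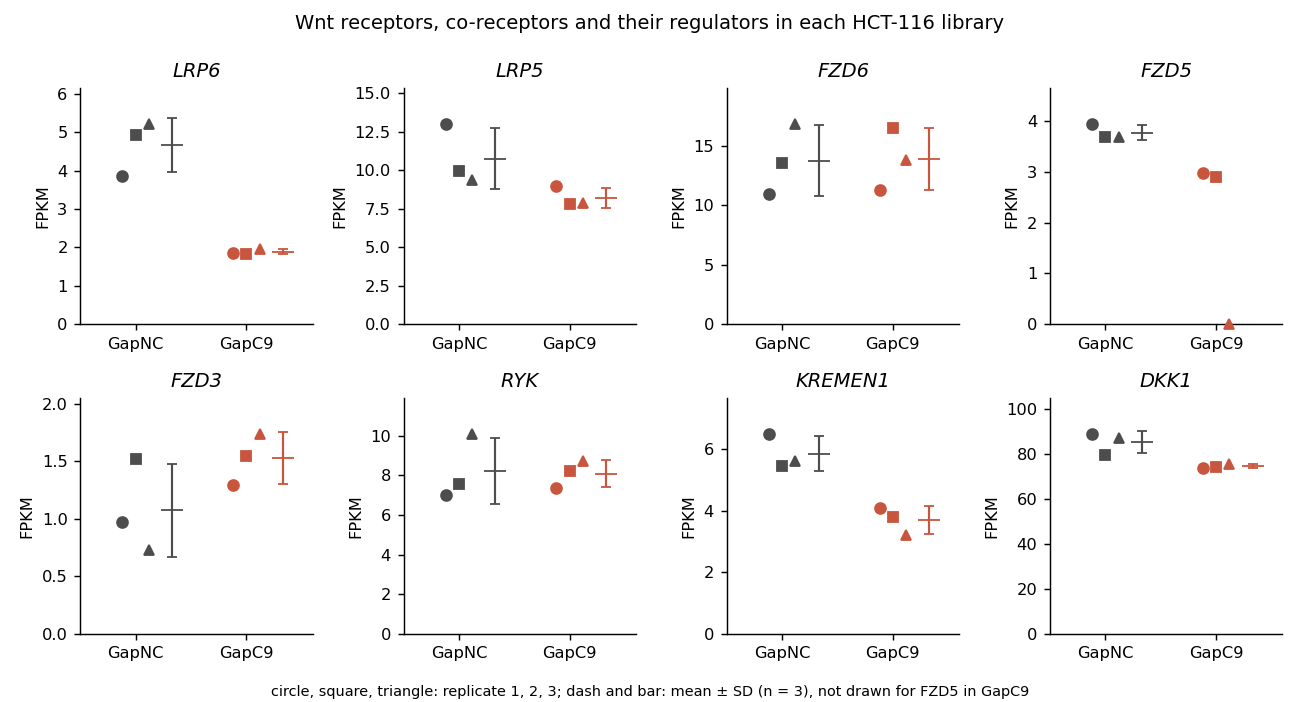
FPKM of each gene (y axis, linear, from 0) in the 3 GapNC and 3 GapC9 libraries, with the replicate shown by the symbol and mean ± SD (n = 3) beside it, except for FZD5 in GapC9, where 1 library is listed at 0. LRP6 and KREMEN1 lie lower in GapC9 with a gap between the groups, whereas FZD6, FZD3 and RYK overlap.

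LRP5, the paralog of LRP6, was the more abundant co-receptor in every library. Its level was 13.0, 9.92 and 9.35 FPKM in GapNC and 8.97, 7.78 and 7.89 FPKM in GapC9. The groups did not overlap, but the highest GapC9 library was close to the lowest GapNC library, and GapNC replicate 1 was far above the others. The log2 difference was -0.37 ± 0.16 (SE, 95% interval -0.75 to 0.01, adjusted p = 0.196), which did not pass the test. It was -0.23 (adjusted p = 0.251) without GapNC replicate 1 and -0.06 (adjusted p = 0.49) after the GC correction. LRP5 is the richest of the 8 in G and C, at 62.8% of its listed transcript. It lies at chr11:68312609-68449275 on the plus strand, and of the 5110 words of 50 bases in its listed transcript, 6 occurred in another gene, LRP5L, and 0 in LRP6.

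Because both co-receptors are measured in each library, their ratio is free of library scaling by a constant. LRP6 stood at 0.297, 0.496 and 0.557 of the level of LRP5 in GapNC and at 0.207, 0.235 and 0.249 in GapC9. The ratio was lower in all 3 GapC9 libraries than in any GapNC library, with the nearest values in GapNC replicate 1 and GapC9 replicate 3. LRP6 made up 30.6% ± 6.81 of the summed FPKM of both in GapNC and 18.7% ± 1.40 in GapC9 (SD, n = 3). The sum itself was 15.4 ± 1.26 FPKM in GapNC and 10.1 ± 0.645 FPKM in GapC9 (SD, n = 3), a ratio of 0.654, which was 0.687 without GapNC replicate 1, the library with the highest sum. After the GC correction the sums were 14.2 ± 0.281 and 10.9 ± 0.18 FPKM (SD, n = 3), a ratio of 0.768. The difference in mean log2 ratio was -0.88 (two-sided exact permutation test, p = 0.1), and 0.1 is the smallest p that 3 against 3 libraries allow. It was -1.25 after the GC correction and -1.15 without GapNC replicate 1, again with no smaller p possible.

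**Figure D2:**
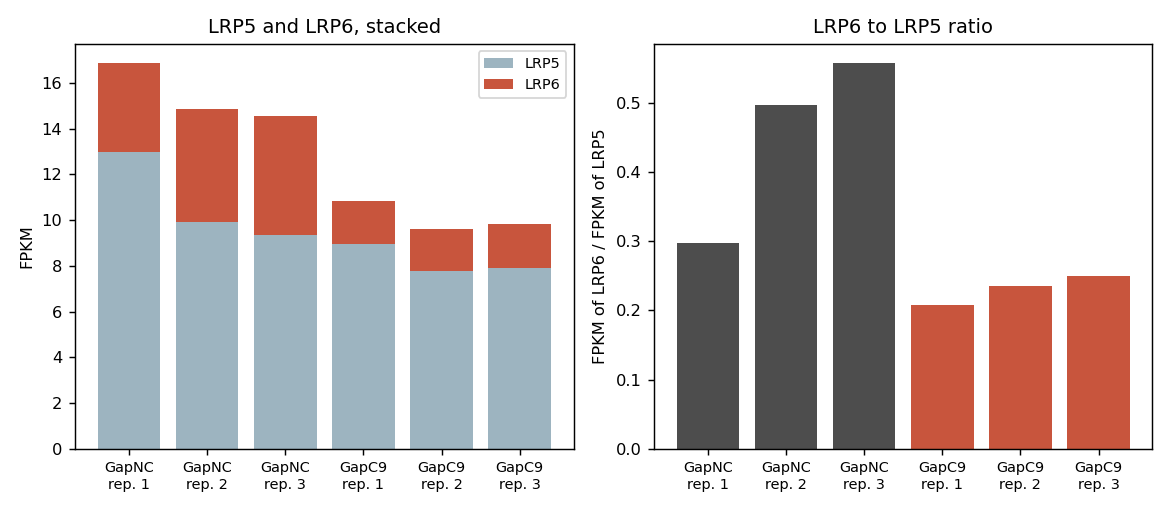
Stacked FPKM of LRP5 and LRP6 (left) and the ratio of LRP6 to LRP5 (right) in each library, bars starting at 0. The ratio is 0.297 to 0.557 in GapNC and 0.207 to 0.249 in GapC9.

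None of the 3 frizzled rows passed the test (limma: 0 past an adjusted p of 0.05 and 0 past an unadjusted p of 0.05, a threshold that 16.8% of all genes tested passed downward and 9.09% upward), and they behaved differently from one another. FZD6, a frizzled known for planar cell polarity, was measured at 10.9, 13.5 and 16.8 FPKM in GapNC and 11.3, 16.5 and 13.8 FPKM in GapC9. The groups covered nearly the same range. The log2 difference was 0.02 ± 0.21 (SE, 95% interval -0.50 to 0.53, adjusted p = 0.973), and its sign turned to -0.08 after the GC correction. A stretch of 138 exonic bases of FZD6 is shared with BAALC-AS1 on the opposite strand, and whether the counting used strand is not given in the sources used here.

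FZD3, known for axon guidance, was the least abundant of the 8, with 0.97, 1.52 and 0.728 FPKM in GapNC and 1.29, 1.55 and 1.74 FPKM in GapC9. The groups overlapped through GapNC replicate 2. The log2 difference of 0.52 ± 0.27 (SE, 95% interval -0.15 to 1.19, adjusted p = 0.293) was not past the threshold, and it ran from 0.29 to 0.78 when single libraries were left out.

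FZD5, a frizzled needed by Paneth cells of the gut, was at 3.94, 3.69 and 3.68 FPKM in GapNC and at 2.98 and 2.89 FPKM in the first 2 GapC9 libraries, and it was listed at 0 in GapC9 replicate 3. The 5 values above 0 were tight within their groups. With the 0 in the fit the log2 difference was -1.99 ± 1.34 (SE, adjusted p = 0.4), and without GapC9 replicate 3 it was -0.35 (adjusted p = 0.23), so that 1 library decides its size. A 0 in 1 library beside at least 1 FPKM in the other 5 occurred in 56 of the rows tested, 8 to 11 in each library.

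Summed over the 8 frizzled genes with a row, the level was 21.2 ± 2.44 FPKM in GapNC and 19.5 ± 3.35 FPKM in GapC9 (SD, n = 3, with FZD5 counted at 0 in GapC9 replicate 3), a difference smaller than either SD. FZD6 alone supplied 58.7 to 72.0% of it in GapNC and 63.9 to 78.6% in GapC9, the highest share being in the library that lists FZD5 at 0. The other 5 frizzleds in the table ranged from 0 to 1.27 FPKM, and none of the 4 tested passed either threshold.

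RYK differed little in mean between the groups, though its GapNC values were spread. It was at 7.00, 7.56 and 10.1 FPKM in GapNC and 7.34, 8.20 and 8.70 FPKM in GapC9, so the GapC9 values lay inside the GapNC range. The log2 difference was -0.01 ± 0.17 (SE, 95% interval -0.42 to 0.40, adjusted p = 0.976), and its sign turned to 0.13 under median scaling and 0.07 under quantile normalization. Of the 2893 words of 50 bases in the RYK transcript searched, 89 (3.08%) also occur in the pseudogene RYKP1. How far this affects the level of RYK was not tested.

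KREMEN1, the DKK1 receptor, was lower in GapC9 by a smaller factor than LRP6. It was measured at 6.50, 5.44 and 5.62 FPKM in GapNC and at 4.10, 3.78 and 3.21 FPKM in GapC9. The groups did not overlap. The means were 5.85 ± 0.568 and 3.70 ± 0.454 FPKM (SD, n = 3), and the log2 fold change was -0.65 ± 0.14 (SE, 95% interval -0.99 to -0.31, adjusted p = 0.0493). This lies just inside the threshold and was lost without any 1 of the 6 libraries (adjusted p 0.0848 to 0.151) and with median scaling (-0.51, adjusted p = 0.0767), whereas the GC correction gave -0.46 with an adjusted p of 0.0295. Its ratio of means, 0.632, did not reach the fold threshold.

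DKK1, the secreted inhibitor and itself a known target gene of β-catenin, was by far the most abundant of the 8. It was at 89.1, 79.7 and 87.1 FPKM in GapNC and at 73.9, 74.4 and 75.8 FPKM in GapC9. The groups did not overlap, though the gap was small beside the level. The log2 difference was -0.19 ± 0.08 (SE, 95% interval -0.39 to 0.01, adjusted p = 0.206) and did not pass the test, and it was -0.04 (adjusted p = 0.758) under median scaling. Exons of PRKG1-AS1 on the opposite strand overlap 212 of its exonic bases. The promoter of DKK1 is shown because DKK1 is the one inhibitor here that is also read out by the pathway, as the 250 bases before its start in RefSeq (GRCh38.p14, chr10:52314031-52314280, plus strand). Capitals mark CTTTGA, a form of the core that TCF/LEF factors can bind, searched on both strands (TCAAAG on the plus strand is a minus-strand match). Other forms of the core were not searched, so a stretch in lower case may still hold one.
DKK1 promoter: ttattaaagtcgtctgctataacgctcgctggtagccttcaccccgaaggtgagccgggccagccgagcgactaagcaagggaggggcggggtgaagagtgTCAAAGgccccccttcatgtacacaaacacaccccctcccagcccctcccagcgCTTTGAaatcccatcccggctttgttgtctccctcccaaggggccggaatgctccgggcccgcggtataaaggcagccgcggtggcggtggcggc

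The matches begin 149 bases (minus strand) and 95 bases (plus strand) before the start. Of 35116 promoter windows of this length, 3937 (11.2%) hold CTTTGA on either strand. The windows of LRP5, FZD5 and RYK, the remaining members with an entry, hold no match, which says only that these letters are absent from the window. A match is a description of the sequence and not evidence of binding.

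Read over the 8 rows, LRP6 and KREMEN1 passed an adjusted p of 0.05 downward and none passed it upward, against 5.1% of all genes tested downward and 1.89% upward. LRP6, LRP5, FZD5, KREMEN1 and DKK1 were lower in GapC9 without overlap of the groups, 5 of 8, beside 21.6% of all genes tested, and none was higher without overlap, beside 12.6%. Of these 5, LRP5, FZD5 and DKK1 did not pass an unadjusted p of 0.05, and FZD5 has a library listed at 0. The median log2 change of the 8 was -0.28, with 6 below and 2 above 0. That of all genes tested was -0.08, with 9035 below and 6993 above 0. Both medians and the counts without overlap are from the values as deposited, and overlap was not counted after scaling. The GC correction put LRP5 at -0.06, KREMEN1 at -0.46 and LRP6 at -1.31, and the median of all genes at 0.02. With median scaling LRP5, KREMEN1 and LRP6 were at -0.23, -0.51 and -1.11, and RYK lay above 0, at 0.13. Median scaling moved the median of all genes by 0.15, to 0.07, and the calls at the fold threshold from 336 higher and 693 lower to 582 higher and 383 lower, while quantile normalization gave 453 and 490 and the GC correction 451 and 419. Relative to the median of all genes, LRP6 was at -1.18 and KREMEN1 at -0.57.

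**Figure D3:**
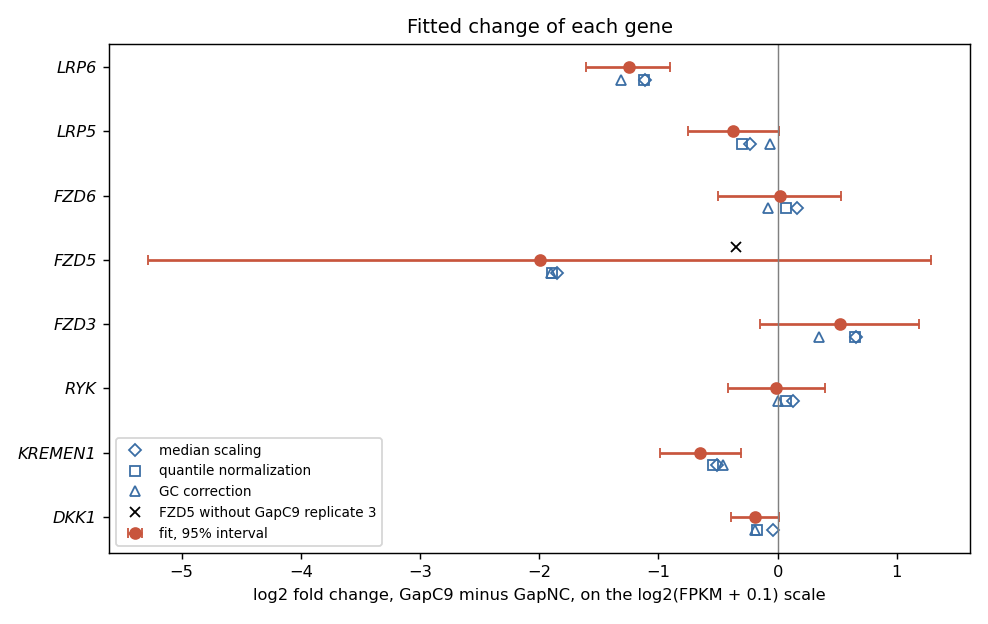
Fitted log2 fold change of GapC9 against GapNC for each gene, with the 95% interval (red) and the value after median scaling, quantile normalization and GC correction (blue). The LRP6 interval runs from -1.61 to -0.90, that of KREMEN1 from -0.99 to -0.31, and those of the other genes include 0, with FZD5 at -0.35 once GapC9 replicate 3 is left out.

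FPKM divides by transcript length, so the levels can be set in an approximate order across genes. It does not correct for GC content, which runs from 34.9% (FZD3) to 62.8% (LRP5) in the listed transcripts. In GapNC the order of mean FPKM was DKK1 (85.3), FZD6 (13.7), LRP5 (10.8), RYK (8.23), KREMEN1 (5.85), LRP6 (4.66), FZD5 (3.77) and FZD3 (1.07). The ranges of FZD6 and LRP5, of LRP5 and RYK, and of LRP6 and FZD5 overlapped, so these neighbours did not differ beyond their spread. In GapC9 the order began alike, with LRP5 (8.21) and RYK (8.08) overlapping, and LRP6 (1.88) stood seventh, above FZD3 (1.53) and below the 2 FZD5 values above 0.

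Among the 9094 genes under 1 name that averaged 1 FPKM or more and had no library at 0, the 3 whose log2(FPKM + 0.1) followed LRP6 most closely over the 6 libraries were EXOSC9 (Pearson r = 0.9995), a subunit of the RNA exosome, TBK1 (r = 0.9994), a kinase of innate immune signaling, and CCDC117 (r = 0.9994). The 6 points fall in 2 groups, so r mostly restates the difference between them, and 374 genes (4.11%) reached 0.95. TBK1 was at 7.23, 10.0 and 10.5 FPKM in GapNC and 3.04, 2.99 and 3.40 FPKM in GapC9, with a log2 fold change of -1.51 ± 0.17 (SE, adjusted p = 0.0166). CCDC117 changed by -1.88 ± 0.19 and EXOSC9 by -0.67 ± 0.10 (SE), with adjusted p of 0.0159 and 0.0269. All 3 were picked from these same libraries for their likeness to LRP6. Their small adjusted p-values largely follow from that choice and are no separate result.

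The rest of the receptor pathway was read from 6 lists of 72 genes, of which 61 had a row and 48 rows could be tested. Of these 48, 7 are joined with another gene (those of RNF43, FRZB, PORCN, MESD, CSNK1G1, GSK3A and CDK14) and give no value of their own for the listed gene. Past an adjusted p of 0.05, 3 rows were lower and 1 was higher, beside 5.1% and 1.89% of all genes tested, a share near that background. The same 4 lie among the 41 genes with a row of their own, whose median log2 change was -0.28 (29 below 0 and 12 above). With the joined rows it was -0.20 (34 below 0 and 14 above). Among the other receptors and co-receptors, ROR2, a receptor of non-canonical Wnt signals, fell from 4.04, 2.61 and 2.46 FPKM to 1.16, 0.902 and 0.82 FPKM, without overlap. Its log2 fold change was -1.54 ± 0.24 (SE, adjusted p = 0.027), -1.31 when corrected for GC and -1.32 without GapNC replicate 1, and it was the only 1 of 7 past the threshold.

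In receptor turnover, ZNRF3, the ubiquitin ligase that removes frizzleds and LRP6 from the membrane, was called lower at the fold threshold but missed the adjusted one. It was at 3.63, 4.56 and 4.67 FPKM in GapNC and at 2.24, 2.08 and 1.11 FPKM in GapC9, a log2 change of -1.25 ± 0.28 (SE, adjusted p = 0.0551). It passed the adjusted threshold with a pseudocount of 1 (adjusted p = 0.0474), at a minimum mean of 1 FPKM (0.0444) and without genes listed at 0 (0.0455), and over all alternatives with a library left out it was at 0.0877 to 0.141. Without GapC9 replicate 3 the ratio of means was 0.504 and the fold call was lost. None of the 5 antagonists with a tested row of their own, other than the listed members, passed either rule.

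Of the Wnt ligands and their export factors, 14 could be tested in a row of their own. WNT3 fell from 3.62, 3.41 and 3.26 FPKM to 2.18, 2.17 and 1.95 FPKM, a log2 fold change of -0.68 ± 0.11 (SE, adjusted p = 0.0307). Of the 3 with a log2 change above 0, WNT8B was the only 1 past the adjusted threshold (1.58 ± 0.19, SE, adjusted p = 0.0172). It rose from 0.111, 0.141 and 0.166 FPKM to 0.628, 0.549 and 0.663 FPKM and stayed below 1 FPKM in every library. WNT10B, at 7.27, 2.89 and 3.49 FPKM in GapNC and 2.91, 0.831 and 1.26 FPKM in GapC9, overlapped between groups. It was called lower at the fold threshold (adjusted p = 0.156), but not without GapNC replicate 1 (log2 change -1.07, ratio of means 0.523), GapNC replicate 3, GapC9 replicate 2 or GapC9 replicate 3, and the GC correction gave -1.21. Among 7 genes with a tested row of their own for LRP5/6 folding and phosphorylation, GSK3B, a kinase that phosphorylates LRP6 and also marks β-catenin for degradation, was at 5.22, 6.03 and 5.49 FPKM in GapNC and 3.17, 2.80 and 3.96 FPKM in GapC9. Its log2 fold change was -0.75 ± 0.16 (SE, adjusted p = 0.0467), and it was the only 1 of the 7 past the adjusted threshold.

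The adjusted calls of these genes were sensitive to single libraries. ROR2, WNT3 and WNT8B each kept an adjusted p under 0.05 in 1 of 6 fits with a library left out, the one without GapNC replicate 1, and GSK3B in 0 of 6 (adjusted p 0.0738 to 0.144). With all libraries kept, GSK3B also lost it under median scaling and quantile normalization (adjusted p = 0.0776 in each). The same held with no filter (0.0764) and no variance trend (0.0582). ROR2, WNT3 and WNT8B stayed under 0.05 in those fits.

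**Figure D4:**
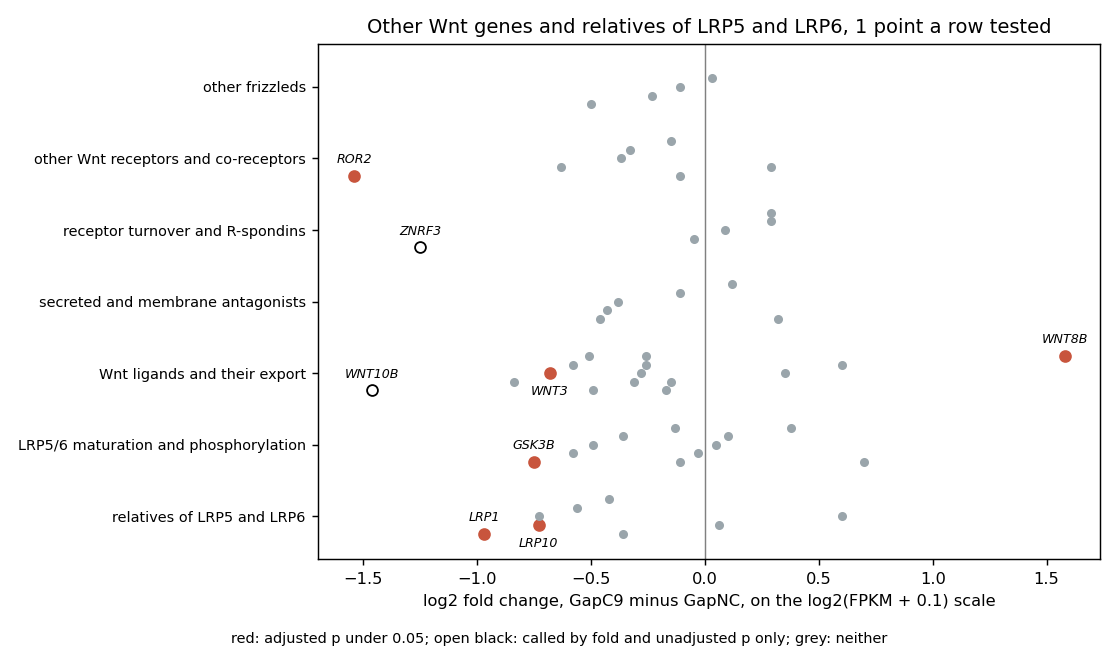
Log2 fold change of GapC9 against GapNC (x axis) for every tested row of the 6 Wnt lists and of relatives of LRP5 and LRP6 (vertical groups), 1 point a row of the table with joined rows included, and with genes past an adjusted p of 0.05 in red and those called by fold and unadjusted p only as open points. ROR2 is at -1.54, ZNRF3 at -1.25 and WNT8B at 1.58.

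Among the listed relatives of LRP5 and LRP6, 7 could be tested in a row of their own. LRP1, an endocytic receptor, was at 3.15, 2.16 and 2.10 FPKM in GapNC and at 1.40, 1.04 and 1.16 FPKM in GapC9, and fell by 0.97 on the log2 scale (SE 0.20, adjusted p = 0.0477). LRP10 was at 15.1, 11.9 and 11.7 FPKM in GapNC and 8.73, 7.00 and 7.49 FPKM in GapC9, a log2 fold change of -0.73 ± 0.15 (SE, adjusted p = 0.0454), which came to -0.52 when corrected for GC and to -0.61 without GapNC replicate 1. Neither kept its adjusted call when any 1 library was left out (adjusted p 0.0637 to 0.158 and 0.0626 to 0.154). With all libraries kept, both also lost it under median scaling (adjusted p = 0.0617 for LRP1 and 0.0624 for LRP10). No filter (0.087 and 0.073) and no variance trend (0.0555 and 0.0595) lost it too, whereas the GC correction kept it (0.0154 and 0.0132). The fold call of LRP1 was lost without GapNC replicate 1 (ratio of means 0.564) or GapC9 replicate 2 (0.519). It was also lost under median scaling, quantile normalization and the GC correction. The median log2 change of these 7 genes was -0.56, with 6 below 0, beside -0.08 for all genes. Of all 16028 tested, 9035 lay below 0. These medians are as deposited, and the GC correction put LRP1 at -0.71 and the median of all genes at 0.02.

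The CASC9 GapmeR has 16 bases, and its best site in the transcripts of the 8 genes left 4 to 6 bases unpaired, against 4 to 5 for the control GapmeR. In LRP6 the fewest mismatches were 5 for the CASC9 GapmeR, with a longest paired run of 10 bases, and 4 for the control, with a run of 9. Introns were not searched.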

How the data were processed

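RNA-seq values of 3 GapNC and 3 GapC9 libraries of HCT-116 cells were used as deposited. Per the methods and the submitters' processing notes, the authors aligned reads with HISAT and StringTie 1.3.0 made the FPKM values. The deposited FPKM table joins neighbouring genes in some rows, and holds no counts, so the authors' edgeR test was not rerun. The submitters' notes also name Bowtie 0.12.2 and the mouse build mm8, which conflicts with the human samples and with the human Ensembl transcripts listed in the table. The human build and the use of strand are not given in the sources used here. Transcripts were matched to GENCODE 29 (GRCh38) by their Ensembl identifiers.

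In R 4.3.3, limma 3.58.1 (lmFit, eBayes with trend) was fitted to log2(FPKM + 0.1), keeping the 16028 rows that averaged 0.1 FPKM or more, with Benjamini-Hochberg adjustment over all rows kept. The code was tested on simulated data. GC content was corrected by lowess (span 0.3). All 8 member rows passed the filter. Named genes are the members, CASC9, every other listed gene past either rule and the 3 most like LRP6. Members, lists and tests were chosen with earlier results of these data known. Alternatives covered pseudocounts, filters, scaling, variance models, GC content, a replicate block, single libraries left out and the fitted fold. Leaving out rows joined with another gene was added after the data were seen. 1 listed gene is not reported here.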

Additional observations from a re-analysis of the deposited data

How the results depend on the processing

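Of the 8 genes, the 1 fold call (LRP6) stood in all 19 alternatives, some of which cannot move its ratio of means. The count past an adjusted p of 0.05, 2 as reported, was 1 with a pseudocount of 1, no filter, median scaling, quantile normalization or no variance trend, and 0 to 1 with a library left out. The labels do not say whether equal replicate numbers share a culture or day, and the values did not settle it. Deviations of same-numbered libraries correlated at 0.097, 0.0398 and 0.0243, with 4 of 6 libraries closest to their own number. Those of differently numbered libraries correlated at -0.093 to 0.0578. With a replicate block in limma 0 members passed (3 at an unadjusted p under 0.05), 0 other Wnt genes (12 unadjusted) and 0 of all genes against 1120, and LRP6 stood at -1.25 (adjusted p = 0.0608). With the GC correction and the block together the counts were 0 (2 unadjusted), 0 (10 unadjusted) and 1, and LRP6 stood at -1.31 (adjusted p = 0.0554). With single libraries left out LRP6 ran from -1.38 to -1.17, the other Wnt genes past the adjusted p from 0 to 3 (4 as reported, and 4 without joined rows), and all genes past it from 34 to 814. The GC correction alone raised that last count to 2383 and no filter lowered it to 492. The fold calls over all genes, 1029, fell to 496 at a minimum mean of 1 FPKM, where fewer genes were tested. FZD6 changed sign with the GC correction (-0.08, also with the block), and ran from -0.14 to 0.17 with libraries left out. RYK changed sign with median scaling (0.13) and quantile normalization (0.07), and ran from -0.12 to 0.15 with libraries left out. FZD5 could not be fitted where genes listed at 0 were left out, nor WNT8B at a minimum of 1 FPKM. Apart from the shorter list at 1 FPKM, the cause of these changes was not tested. The LRP6 to LRP5 ratio kept its direction in all 13 alternatives. The table holds no counts, so the counting error of single values is unknown.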

Other observations

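The level of the inhibitor DKK1 relative to the summed co-receptors LRP5 and LRP6 was 5.28, 5.37 and 5.98 in the GapNC libraries and 6.83, 7.75 and 7.70 in the GapC9 libraries. After the GC correction it was 6.81, 5.35 and 5.81 in GapNC and 6.90, 6.83 and 6.67 in GapC9, so that the groups overlapped through GapNC replicate 1. The ratio of the group means was 1.34 as deposited, 1.13 when corrected for GC and 1.31 without GapNC replicate 1. This ratio combines the DKK1 level with the LRP5 and LRP6 sum, both given above, and is no separate result. Its differences between the groups were not tested.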
